A study of Mus musculus with 6 samples.

Results

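Heat shock and cytosolic chaperones are the proteins that fold new and damaged polypeptides outside the secretory pathway, together with the mitochondrial members of the same families. They were taken as all probe sets (the array's groups of oligonucleotides for 1 transcript) whose platform annotation named 1 of 36 genes. These were 59 probe sets of 30 genes, out of 11811 probe sets in the table, and 58 of them, for 29 of 6604 tested genes, passed a minimum mean signal of 100. The other 6 listed genes (Hspa1a, Hspa2, Hsp90ab1, Ptges3 and the heat shock factor genes Hsf1 and Hsf2) were not analysed here. Total liver RNA was hybridised to 1 Affymetrix array per sample, 3 from mice labelled as lacking Atp7b, the copper-transporting ATPase lost in Wilson disease, and 3 from mice labelled wild type. The samples are named by genotype and label number, KO903, KO904 and KO905 against WT4, WT5 and WT6. The labels give no sex, age, strain, diet or treatment, and do not say in which cells the gene was disrupted. The series title places the knockout livers at an early stage of copper accumulation, and the comparison asks which chaperone transcripts differ at that stage. The labels do not say whether the samples of a group are different mice, so the spread behind every p-value may be technical.

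Chaperones of the Hsp70 class bind unfolded stretches of protein and release them on ATP hydrolysis, helped by Hsp40 co-chaperones, while Hsp90 completes the folding of kinases and hormone receptors. Small heat shock proteins hold unfolded proteins without ATP, and the TRiC ring encloses actin and tubulin while they fold. When unfolded proteins build up, for instance after heat or toxic metals, heat shock factor 1 binds heat shock elements in the promoters of many of these genes and raises their transcription.

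Promoter sequences are shown here because that element is what the heat shock response acts on. Of the listed genes, 28 had a RefSeq window (mouse build GRCm38.p6) running from 250 bases before an annotated start to 50 bases after it. The windows were searched for heat shock elements of 2 units, GAANNTTC or TTCNNGAA, and of 3 units, in which NNGAA follows the former or NNTTC the latter. The motifs of 2 units read the same on both strands, those of 3 units are each other's reverse complement, and a match of 3 units contains matches of 2 units. A match of 2 units lay in 14 of the 28 genes (50% against 17.0% of 27025 genes with a window) and a match of 3 units in 3 of them (10.7% against 0.662%). A match is a description of the letters, not a bound site. Matches are in capitals in the following sequences, written from 5′ to 3′ on the strand of the gene.
Hspe1, chr1:55088053-55088082, plus strand: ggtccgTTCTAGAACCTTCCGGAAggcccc
Hsph1, chr5:149636351-149636380, minus strand: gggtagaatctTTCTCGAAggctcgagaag
Hspb1, chr5:135887669-135887918, plus strand: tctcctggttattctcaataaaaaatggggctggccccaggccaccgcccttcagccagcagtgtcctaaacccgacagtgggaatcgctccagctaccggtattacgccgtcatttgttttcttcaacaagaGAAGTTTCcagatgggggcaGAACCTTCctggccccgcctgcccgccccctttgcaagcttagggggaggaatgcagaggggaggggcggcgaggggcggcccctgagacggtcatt
Hspa1b, chr17:34959239-34959488, minus strand: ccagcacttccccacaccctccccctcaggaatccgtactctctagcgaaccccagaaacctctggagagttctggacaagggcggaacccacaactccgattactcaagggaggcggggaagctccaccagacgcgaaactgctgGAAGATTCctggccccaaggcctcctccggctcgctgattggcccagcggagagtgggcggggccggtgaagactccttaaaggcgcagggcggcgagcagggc

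The Hspe1 stretch also lies before a start of Hspd1, which runs the other way from a point 216 bases off, so both mitochondrial chaperonin genes share this match. The remaining gene with a match of 3 units was Hsph1, where that match is not within the bases before the start and a match of 2 units before it is printed. The 250 bases before Hspa1a and Hspa1b were identical at 247 positions. The log2 differences of genes with and without a match spanned similar ranges. The 13 tested genes with a match of 2 units had a median log2 difference of 0.01 between knockout and wild type, from -0.48 to 0.16. The 11 tested genes with a window but no match had a median of 0.01, from -0.32 to 0.27.

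Albumin (Alb), the main hepatocyte product, had signals from 21282 to 27522 on the 6 arrays. The summed signal of 11 measured hepatocyte markers was 180577 to 208766 in the knockout and 192102 to 235338 in wild type. Of these 11, 9 had log2 differences below 0, limma called 0, and 1 (Tat, lower) had an unadjusted p under 0.05. A dimmer probe set of the marker Tdo2 was called lower (log2 -0.71, limma adjusted p = 0.033). Atp7b was read by 1 probe set, which averaged 219 ± 29.9 over the knockout samples and 267 ± 30.1 over the wild-type ones (SD, n = 3; limma adjusted p = 0.407), and whether that probe set lies in the disrupted part is not known. The metal-induced metallothionein transcripts Mt1 and Mt2 rose 2.20-fold and 2.86-fold (adjusted p = 0.000747 and 0.000341). Among markers of other cells, macrophage genes summed to 6142 to 8248 in the knockout and 4446 to 6239 in wild type (0 of 9 tested were called by limma, 4 had an unadjusted p under 0.05), and Krt8 and Krt18, cholangiocyte keratins that hepatocytes also express, to 4847 to 5127 and 3350 to 4299 (0 of 2 called, 2 with an unadjusted p under 0.05). The 7 endothelial genes summed to 2262 to 2840 and 1916 to 2240 (0 called by limma), and the 3 with an unadjusted p under 0.05 differed in direction, with log2 differences of 0.36 for Stab2, 0.45 for Eng and -0.56 for Lyve1. The erythroid gene Alas2 rose (adjusted p = 0.00183), and no probe set was assigned to any of 10 skeletal muscle markers. The part of these cells in the chaperone values was not tested. In bulk liver, fewer cells of a type and less RNA per cell cannot be told apart.

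No chaperone gene was called higher in the Atp7b knockout livers. The stress-inducible Hsp70 gene Hspa1b averaged 243 ± 43.9 with the gene disrupted and 242 ± 108 without, and the small heat shock gene Hspb1 188 ± 30.5 and 185 ± 22.7 (SD, n = 3, MAS 5.0 signal), each on its brightest probe set; the 2 dimmer probe sets of Hspa1b had log2 differences of 0.64 and 0.55 and were not called. On the probe set with the highest mean signal, which stood for each gene, limma called 0 of 29 genes at an adjusted p of 0.05, against 3.94% of all 6604 tested genes. An unadjusted p under 0.05 was found for 2 of the 29 (Hsph1 and Cct2, both lower), against 18% of all genes. The median log2 difference was -0.01 over the 29 genes and 0.03 over all tested genes, and 14 genes lay above 0 and 15 below. On these brightest probe sets all 29 confidence intervals (95%, limma) lay between -0.92 and 0.62, inside a 2-fold change on the log2(signal + 16) scale. Intervals of some dimmer probe sets reached past 2-fold. They were -1.20 to -0.45 for 1 of Hspa8, and 0.14 to 1.13 and -0.18 to 1.27 for the 2 of Hspa1b. At the level of single probe sets, 2 of 58 passed, both lower in the knockout and neither the brightest of its gene, 1 for Hspa8 and 1 for Cct6a. Of all tested probe sets 4.14% passed, 2.09% lower and 2.05% higher. An unadjusted p under 0.05 (limma) was found for 10 of the 58, 7 of them lower, against 17.9% of all tested probe sets. An unadjusted p under 0.05 was therefore uncommon on the brightest probe sets. Over all 58 it was about as common as among all tested probe sets. With each gene taken as the mean of its probe sets, limma again called 0 chaperone genes.

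**Figure D1:**
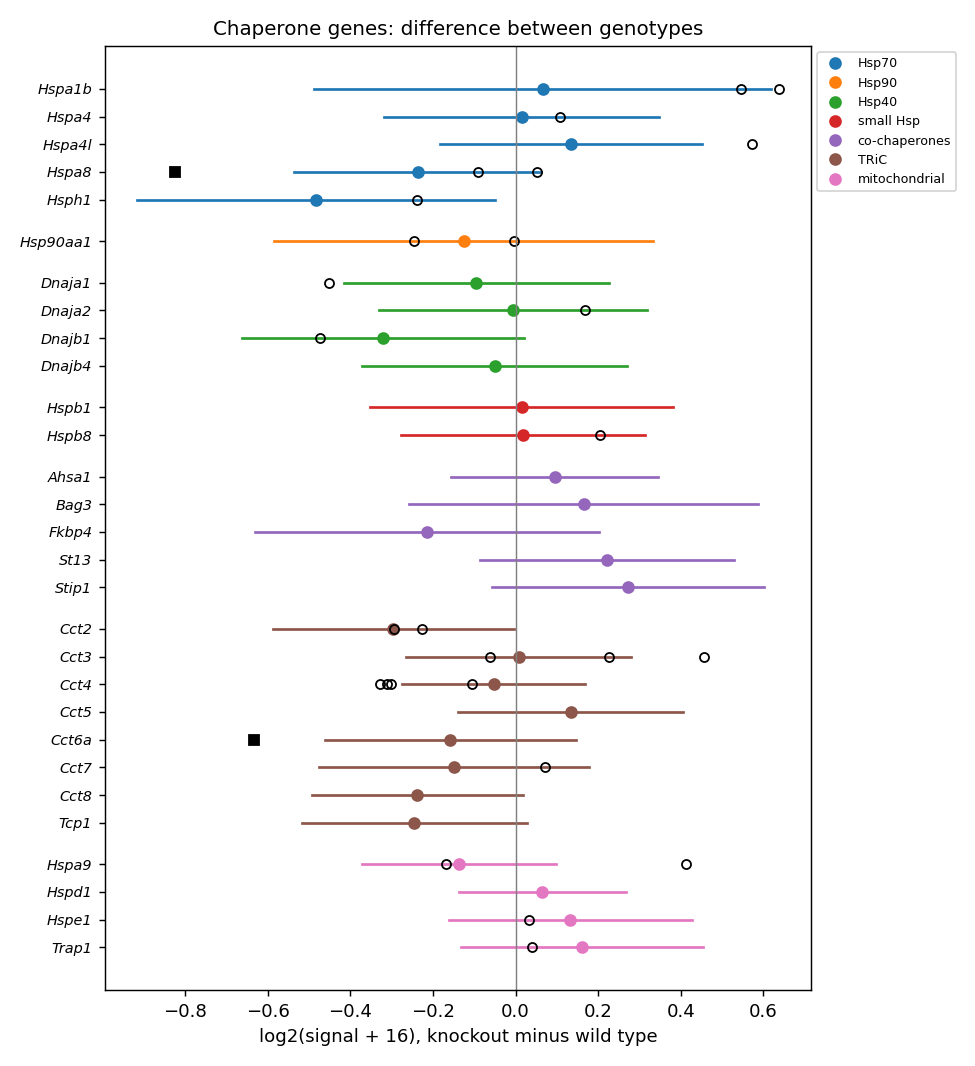
Log2 difference between knockout and wild type for the 29 tested chaperone genes, grouped by class. Coloured points are the brightest probe set of each gene with limma's 95% confidence interval, open circles are its other tested probe sets, and black squares are the 2 probe sets that passed an adjusted p of 0.05. The coloured points lie between -0.48 and 0.27.

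WT4 had the highest mean level of the 6 arrays in the Hsp70, Hsp90 and Hsp40 classes. It had the highest signal in 7 of 10 tested genes of these classes, in 0 of 8 TRiC genes and in 12.0% of all tested genes. Grouping these classes was not planned in advance. Over all chaperone genes WT4 and KO903 were each highest in 8, and WT4 lay below the mean for small heat shock genes (-0.11) and co-chaperones (-0.14). The mean log2 level of the 5 Hsp70 genes, relative to the mean of the 6 arrays, was 0.36 in WT4 and from -0.20 to 0.10 on the other arrays. For the 4 Hsp40 genes it was 0.28 in WT4 and from -0.09 to -0.01 elsewhere. The Hsp90 gene Hsp90aa1 was high in WT4 (0.45) and also in KO905 (0.33), against -0.32 to 0.06 on the others. Without WT4 limma again called 0 of the 29 genes, and the class medians became 0.10 for Hsp70, 0.07 for Hsp90 and 0.03 for Hsp40. The labels give no time of sampling, and the cause was not tested.

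**Figure D2:**
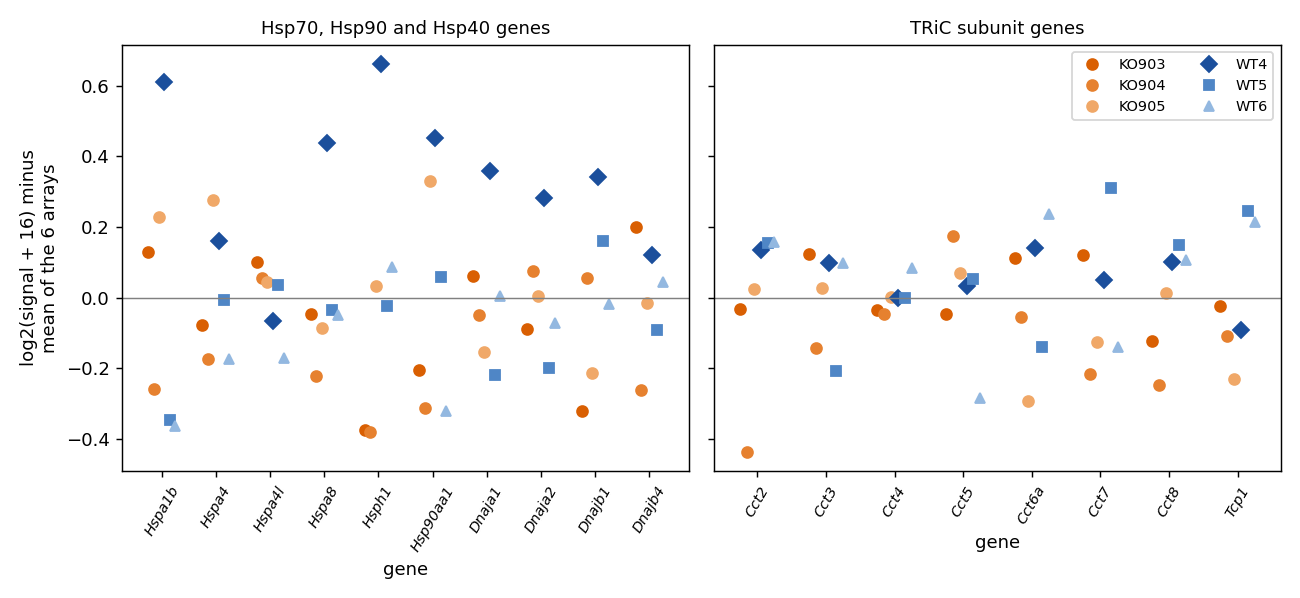
Level of each gene on each array as log2(signal + 16) minus its mean over the 6 arrays, for the 10 Hsp70, Hsp90 and Hsp40 genes (left) and the 8 TRiC genes (right). Orange circles are knockout samples and blue symbols wild-type samples. The WT4 diamond is the highest symbol for 7 of the 10 genes on the left and for 0 of the 8 on the right.

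In the Hsp70 class, the constitutive cytosolic form Hspa8 was read by 4 probe sets that did not give the same result. The brightest gave 3357, 2969 and 3262 in KO903, KO904 and KO905 against 4701, 3385 and 3350 in WT4, WT5 and WT6. Its knockout and wild-type values overlapped by a narrow margin, and WT4 was far above the rest (log2 -0.24 ± 0.14 SE, adjusted p = 0.401). The called probe set, 1420622_a_at, gave 568, 633 and 579 in the knockout and 1336, 1119 and 800 in wild type. There every knockout value lay below every wild-type value, and the difference was 1.77-fold (log2 -0.82 ± 0.17 SE, adjusted p = 0.0233). The call was lost without KO903, KO904, KO905 or WT4 (adjusted p 0.0690 to 0.0822), while the log2 difference stayed between -1.03 and -0.66. Both other probe sets were near 0, with log2 differences of -0.09 and 0.05. Relative to the brightest one, the called probe set was lower in the knockout by 0.59 on the log2 scale (log2 -0.59). The exact permutation p was 0.1 (two-sided), the smallest that 3 against 3 allows, and the adjusted p was 0.414 over 29 such pairs. Of these 29 pairs, 7 did not overlap between groups. The probe set was picked because it was called, so this comparison cannot decide whether it differs from the brightest.

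Probe set names bear on this reading. On this array type the suffix _x_at marks probe sets with probes that also match other transcripts, _s_at those shared by several transcripts, and _a_at those shared by transcripts of 1 gene. The 2 bright Hspa8 probe sets are of the _x_at kind and the called one is not. When the 14 chaperone probe sets of the _x_at and _s_at kinds were left out, the called probe set stood for Hspa8 and 1 of 29 genes was called, a choice made after the data were seen. Which Hspa8 transcript or region each probe set reads was not examined here.

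**Figure D3:**
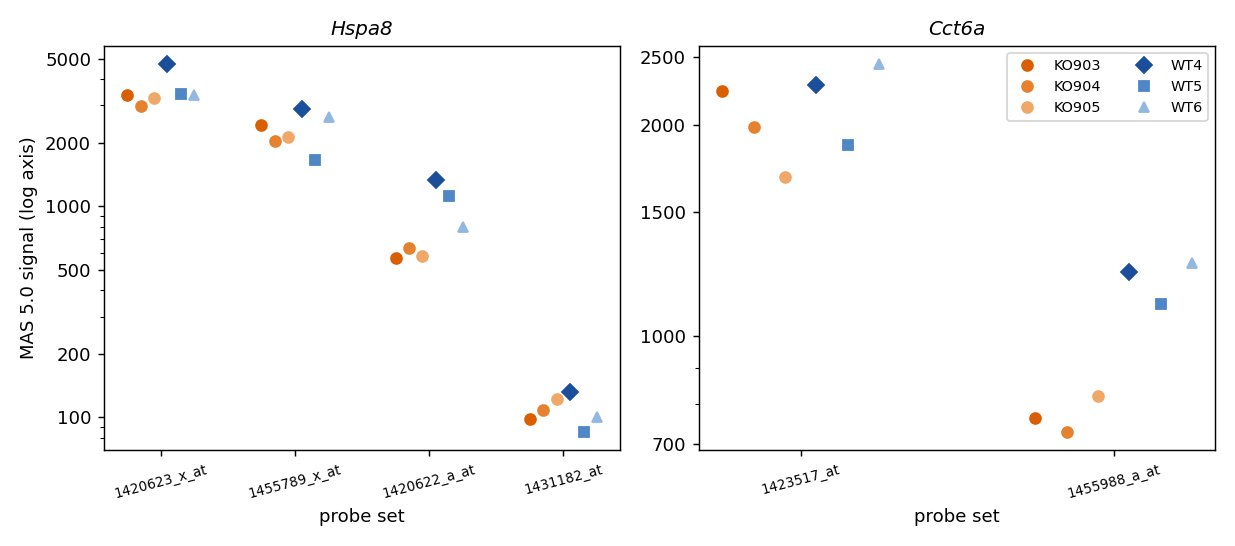
Signals of each probe set of Hspa8 (left) and Cct6a (right) on the 6 arrays, on a log axis. Orange circles are knockout and blue symbols wild-type samples. The groups are apart for 1420622_a_at and 1455988_a_at and overlap for the other probe sets.

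Hspa1b, whose near-identical neighbour Hspa1a had no probe set of its own here, was read by 3 probe sets, and reads of the pair cannot be assigned with certainty. The brightest gave 258, 193 and 277 in the knockout and 366, 181 and 179 in wild type. WT4 was the highest of all 6 and the groups overlapped (log2 0.07 ± 0.25 SE, adjusted p = 0.926). Without WT4 the log2 difference was 0.39 (adjusted p = 0.372). Another Hspa1b probe set, 1427126_at, gave 160, 112 and 198 against 90.0, 74.3 and 118, mostly higher in the knockout but with KO904 below WT6 (log2 0.64 ± 0.23 SE, adjusted p = 0.159). The remaining one, 1427127_x_at, gave 280, 170 and 316 against 299, 99.2 and 145, where WT4 lay inside the knockout range and the other wild-type values below it (log2 0.55 ± 0.33 SE, adjusted p = 0.428).

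Hsph1, the Hsp110 that recharges Hsp70 with nucleotide, had the largest difference among the 29 genes. Its values were 239, 238 and 323 in the knockout and 508, 309 and 335 in wild type, so that only KO905 reached the wild-type range (log2 -0.48 ± 0.20 SE, adjusted p = 0.225). Without WT4 the log2 difference was -0.27. The dimmer probe set of Hsph1 overlapped between groups (log2 -0.24 ± 0.20 SE, limma adjusted p = 0.593). A relative of Hsph1, Hspa4, gave 570, 531 and 732 in the knockout and 675, 599 and 531 in wild type, with full overlap. Hspa4l, also of the Hsp110 branch, was the only tested gene of the class with the knockout values all higher: 199, 192 and 191 against 175, 189 and 162. That margin was small (log2 0.13 ± 0.14 SE, adjusted p = 0.699). Its dimmer probe set was apart too, at 163, 179 and 201 against 125, 134 and 93.4 (log2 0.57 ± 0.18 SE, adjusted p = 0.103). Groups that do not overlap occurred in 24.1% of all tested genes and in 23.6% of all tested probe sets.

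Of the Hsp90 class, Hsp90aa1, the inducible cytosolic form, was measured. Its brightest probe set gave 1014, 940 and 1480 in the knockout and 1611, 1221 and 935 in wild type. Both groups spanned nearly the same range (log2 -0.13 ± 0.21 SE, adjusted p = 0.813). Its dimmer probe sets had log2 differences of -0.25 and 0.00 (-0.0039), and KO905 was the highest knockout sample on all 3.

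The J domain of Hsp40 proteins starts ATP hydrolysis by Hsp70. All 4 tested genes of the class had log2 differences below 0 on their brightest probe sets, with a median of -0.07. Dnajb1, the main stress-inducible member, gave 246, 324 and 266 in the knockout and 398, 349 and 307 in wild type. Only KO904 passed the lowest wild-type value (log2 -0.32 ± 0.15 SE, adjusted p = 0.311), and its dimmer probe set had a log2 difference of -0.47 (adjusted p = 0.244). Dnaja1, which pairs with Hspa8, gave 1928, 1786 and 1661 against 2377, 1584 and 1855 on its brightest probe set, with overlap (log2 -0.10 ± 0.15 SE, adjusted p = 0.795). On its other probe set the knockout was lower in every sample, at 1349, 1097 and 1477 against 1899, 1665 and 1789 (log2 -0.45 ± 0.13 SE), and the adjusted p of 0.0795 missed the threshold. Dnaja2 and Dnajb4, further members that assist Hsp70, had log2 differences of -0.01 and -0.05. The dimmer probe set of Dnaja2 ran the other way (log2 0.17). Without WT4, Dnaja1 and Dnaja2 lay above 0 (0.06 and 0.13).

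In the small heat shock class 0 of 2 tested genes were called by limma (0 at an unadjusted p under 0.05). Hspb1 gave 222, 181 and 162 in the knockout and 170, 174 and 211 in wild type, with KO903 and WT6 high (log2 0.01 ± 0.17 SE, adjusted p = 0.978). Hspb8, which works with Bag3 in removing misfolded proteins, gave 1112, 1388 and 1473 against 1210, 1448 and 1250 (log2 0.02 ± 0.13 SE, adjusted p = 0.965). Cryab was too dim to test, at 59.5, 70.6 and 54.1 in the knockout and 54.4, 44.5 and 47.2 in wild type. The sign for Hspb1 and Hspb8 was not stable, and both fell below 0 with each array centred on its median.

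The co-chaperones had 4 of 5 tested genes above 0, with a median of 0.16, and limma called 0 of them (0 at an unadjusted p under 0.05). Stip1, which bridges Hsp70 and Hsp90, gave 441, 397 and 413 in the knockout and 344, 408 and 286 in wild type, so that WT5 alone entered the knockout range (log2 0.27 ± 0.15 SE, adjusted p = 0.379). St13, which steadies substrate-bound Hsp70, gave 983, 807 and 865 against 720, 892 and 669, again with WT5 inside the knockout range (log2 0.22 ± 0.14 SE, adjusted p = 0.453). Ahsa1, the activator of the Hsp90 ATPase, gave 1207, 1181 and 1403 against 1195, 1204 and 1140, with overlap (log2 0.09 ± 0.11 SE, adjusted p = 0.736). The nucleotide exchange factor gene Bag3 had a log2 difference of 0.16 (-0.01 without WT4) and the immunophilin gene Fkbp4 of -0.21. Ptges3 was named for 2 probe sets only together with another symbol, so they were not assigned to it.

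The TRiC subunits, 8 genes for the 8 proteins of each ring, lay mostly lower in the knockout. Of the 8 genes 6 had log2 differences below 0, with a median of -0.15, and limma called 0 (1 at an unadjusted p under 0.05). Of all 6604 tested genes, 2877 lay below 0. Their mean log2 level relative to the 6 arrays was 0.01, -0.14 and -0.06 in KO903, KO904 and KO905 and 0.06, 0.07 and 0.06 in WT4, WT5 and WT6. The wild-type values were close together and all above the knockout ones, by a narrow margin (0.058 in WT4 against 0.012 in KO903). The other classes overlapped between groups, and no reference share for class means was computed. Of 19 probe sets 14 lay below 0, with a median of -0.16. In 5 of the 19 every knockout value was below every wild-type value, which 10.4% of all tested probe sets showed in that direction. The median over genes was -0.23 with each gene taken as the average of its probe sets and -0.24 and -0.09 without KO903 and KO905.

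Cct6a, the zeta subunit, held the called TRiC probe set. On 1455988_a_at it gave 762, 730 and 821 in the knockout and 1234, 1110 and 1269 in wild type, 1.55-fold lower with tight groups (log2 -0.63 ± 0.11 SE, adjusted p = 0.0126). The call was lost without KO903 or KO904 (adjusted p = 0.0506 and 0.0608). The brighter probe set of Cct6a gave 2236, 1986 and 1683 against 2278, 1872 and 2440 with overlap (log2 -0.16 ± 0.14 SE, adjusted p = 0.609). The called one was lower relative to it by a log2 difference of -0.47 (exact permutation p = 0.1, two-sided, adjusted p = 0.414). As for Hspa8, it was picked because it was called and 7 of the 29 pairs did not overlap, so the comparison cannot decide whether they differ.

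Cct2, the beta subunit, gave 1504, 1134 and 1568 in the knockout and 1691, 1715 and 1718 in wild type. The wild-type values were nearly equal, all above the knockout, and KO904 was the lowest (log2 -0.30 ± 0.13 SE, adjusted p = 0.269). Its other 2 probe sets had log2 differences of -0.29 and -0.23. Cct8, the theta subunit, also separated, at 811, 742 and 893 against 950, 981 and 952 (log2 -0.24 ± 0.12 SE, adjusted p = 0.317). Tcp1, the alpha subunit, gave 1506, 1419 and 1303 against 1438, 1820 and 1779, where WT4 fell inside the knockout range (log2 -0.24 ± 0.12 SE, adjusted p = 0.334). Cct4, the delta subunit, had a log2 difference of -0.05 on its brightest probe set, and 4 of the _x_at kind had -0.10, -0.30, -0.31 and -0.33. Set against the brightest within arrays, these 4 had exact permutation p-values from 0.1 to 0.6 (two-sided, adjusted p from 0.414 to 0.791). Because 0.1 is the smallest p that 3 against 3 allows, this test could not decide whether they differ from the brightest. The gamma subunit gene Cct3 had log2 differences from -0.06 to 0.46 over 4 probe sets. The epsilon subunit gene Cct5, at 1704, 1989 and 1849 in the knockout and 1799, 1826 and 1443 in wild type, overlapped between groups (log2 0.13 ± 0.12 SE, adjusted p = 0.64), and the eta subunit gene Cct7 had a log2 difference of -0.15.

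Of the 4 mitochondrial chaperone genes limma called 0 (0 at an unadjusted p under 0.05), with a median log2 difference of 0.10. Hspd1, the mitochondrial chaperonin, gave 6671, 5842 and 6312 in the knockout and 5888, 5992 and 6097 in wild type, with KO904 below all wild-type values and the other knockout values above them (log2 0.06 ± 0.09 SE, adjusted p = 0.775). Its lid Hspe1, which shares the promoter stretch shown above, gave 4751, 3767 and 4800 against 4108, 3444 and 4603 (log2 0.13 ± 0.13 SE, adjusted p = 0.672). Trap1, the mitochondrial Hsp90, gave 1919, 1494 and 1450 against 1316, 1575 and 1429, with KO903 high (log2 0.16 ± 0.13 SE, adjusted p = 0.586). Hspa9, the mitochondrial Hsp70, gave 2302, 2340 and 2558 against 2836, 2696 and 2402 on its brightest probe set (log2 -0.14 ± 0.11 SE, adjusted p = 0.558). Its dimmest probe set ran the other way, at 526, 395 and 439 against 390, 366 and 261, with the groups apart (log2 0.41 ± 0.17 SE, adjusted p = 0.238). Of the 18 genes with several tested probe sets, 5 had probe sets of both signs.

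Among related folding genes outside these classes some were called, where 3.94% of all tested genes were called in either direction. Of 39 tested genes listed as further cytosolic chaperones and co-chaperones, limma called 1, lower, and the median log2 difference was -0.03. That list also held Hsf4, Tsc22d3 and Ube4b, which are not chaperones. The called gene was Fkbp5, an Hsp90-bound immunophilin, at 656, 1143 and 1056 in the knockout and 1633, 1539 and 1807 in wild type. KO903 was lowest and every knockout value was below every wild-type value (1.78-fold; log2 -0.83 ± 0.18 SE, adjusted p = 0.0329). That call was lost without KO903, KO905, WT4 or WT6 (adjusted p 0.0566 to 0.0949) and with eBayes without trend (0.0619).

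Among 13 tested mitochondrial chaperones and proteases, 1 fell and 1 rose, with a median of 0.10. Of all tested genes 3.94% were called in either direction. Lonp1, the matrix protease that degrades damaged proteins, gave 335, 343 and 261 in the knockout and 757, 661 and 875 in wild type. This 2.37-fold decrease was the largest difference among the tested genes of these chaperone lists and kept its call without any 1 of the 6 samples (log2 -1.25 ± 0.15 SE, adjusted p = 0.00142; at most 0.00774 with a sample left out). Clpx, the unfoldase of the other soluble matrix protease, rose from 472, 464 and 308 to 659, 699 and 788 (1.72-fold; log2 0.78 ± 0.17 SE, adjusted p = 0.0279). The Clpx call was lost without KO903, KO904, KO905 or WT6 (adjusted p 0.0550 to 0.102). Lonp1 and Clpx were each read by 1 probe set.

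In the endoplasmic reticulum, 3 of 23 tested genes for chaperones and related proteins fell and 0 rose. For comparison, 3.94% of all tested genes were called in either direction. Hspa5, the Hsp70 of that compartment, gave 2934, 1963 and 2616 in the knockout and 4792, 3370 and 4244 in wild type, with the groups apart (log2 -0.72 ± 0.16 SE, adjusted p = 0.034). Dnajb9, an Hsp40 of that compartment, gave 1242, 1182 and 1165 against 2241, 2046 and 1756, also apart (log2 -0.74 ± 0.12 SE, adjusted p = 0.00672). Herpud1, part of its protein degradation machinery, gave 2575, 3158 and 3717 against 5302, 5126 and 4488 (log2 -0.67 ± 0.14 SE, adjusted p = 0.0213). The median log2 difference over the 23 genes was -0.02, close to the -0.01 of the 29 chaperone genes. Other counts were less alike. An unadjusted p under 0.05 (limma) was found for 8 of the 23 and 2 of the 29, against 18% of all tested genes. Absolute log2 differences over 0.5 occurred in 4 of the 23 and 0 of the 29, against 490 of all 6604. The 2 lists were not tested against each other. Without WT4 the calls of Hspa5 and Herpud1 were lost (adjusted p = 0.112 and 0.0692), as they were without other single samples and with eBayes without trend (adjusted p = 0.0725 and 0.0559).

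**Figure D4:**
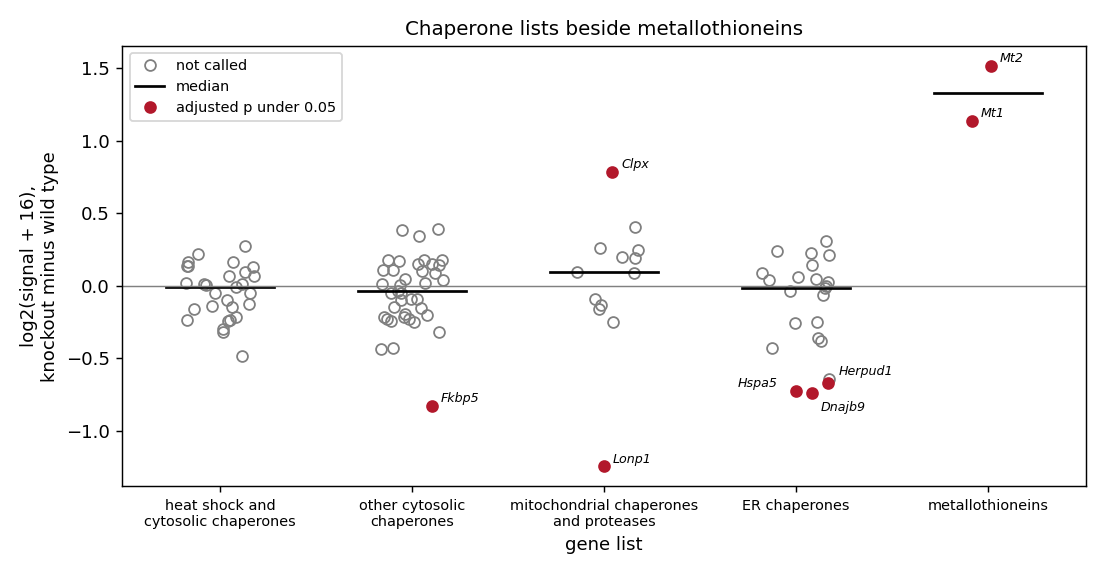
Log2 difference between knockout and wild type for each tested gene, on its brightest probe set, in the chaperone classes described and in further lists of folding genes, beside the metallothioneins Mt1 and Mt2. Filled red points passed an adjusted p of 0.05, open grey points did not, and black bars are medians. The first list holds 0 red points among 29 genes and the third holds Clpx above and Lonp1 below the line at 0.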

How the data were processed

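Per the labels, the deposited intensity values are MAS 5.0 signals on a linear scale, with each array scaled to a target average of 350. How the probe sets of the table were chosen is not given here, and detection calls were not used. Array medians ran from 330.1 to 342.4 and the ratio of 3' to 5' actin signal from 1.10 (WT5) to 1.47 (WT6). Groups came from sample titles. After leaving out 33 control probe sets and 1158 with a mean signal under 100, 10620 were tested on log2(signal + 16), which understates changes of dim probe sets. The test was limma (lmFit, then eBayes with its trend option, two-sided). P-values were adjusted by Benjamini-Hochberg across the 10620 and called at 0.05. The number of arrays, 3 a group, limits the precision.

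Named with a value for every sample were, per class, the gene with the highest mean signal and that with the largest difference, genes with an unadjusted p under 0.05 or groups that do not overlap, 9 fixed stress genes where measured, and up to 4 called genes of each further list; Hspa4, St13, Hspa9, Hspe1, Tcp1, Cct5, Cryab and some dimmer probe sets were added after their values were seen. The genes and lists were chosen with earlier results of these data known. Symbols came from the platform annotation, and probe sets with several symbols (418) or none (584) were not named. Scripts were tested on simulated data. Versions were R 4.3.3, limma 3.58.1, Python 3.11.15 and matplotlib 3.10.9.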

Additional observations from a re-analysis of the deposited data

How the results depend on the processing

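The alternatives were quantile normalization, centring on array medians, pseudocounts of 1 and 64, no signal filter or a minimum of 200, eBayes without trend or robust, array weights, each sample left out, the mean over probe sets, an adjusted p of 0.10 and, chosen after seeing the data, no _x_at or _s_at probe sets. Limma called 0 of the chaperone genes under all of them except the last, with 1 (Hspa8). Under the other 17 alternatives, which were run for single genes, all 29 log2 differences lay between -0.62 and 0.42, the lowest adjusted p was 0.0655 and 18 genes kept their sign. With samples left out in turn, the count over all probe sets ran from 175 to 469 (440 with all samples), chaperone probe sets from 0 to 2, further cytosolic chaperones 0 to 1, mitochondrial ones 1 to 2, those of the endoplasmic reticulum 1 to 3, and the TRiC median from -0.24 to -0.095. Without the trend the further cytosolic count was 0 and that of the endoplasmic reticulum 1; at an adjusted p of 0.10 all calls were 786 and further cytosolic ones 2; the mean over probe sets gave a TRiC median of -0.23. The larger counts at 0.10 follow from the threshold; the cause of the other changes was not tested.

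Sign changes were all in genes that were not called. With quantile normalization they were Hspa4 (-0.0028) and Hspb1 (-0.034), with centring Hspa4 (-0.012), Hspb1 (-0.012), Hspb8 (-0.0092) and Cct3 (-0.020), with array weights Hspa1b (-0.055), Hspa4 (-0.0041) and Cct3 (-0.021), and with the mean over probe sets Dnaja2 (0.081) and Hspa9 (0.035). Ranges with a sample left out were -0.10 to 0.39 for Hspa1b, -0.12 to 0.11 for Hspa4, -0.32 to 0.069 for Hsp90aa1, -0.10 to 0.11 for Hspb1, -0.063 to 0.14 for Hspb8, -0.23 to 0.061 for Dnaja1, -0.11 to 0.13 for Dnaja2, -0.16 to 0.068 for Dnajb4, -0.094 to 0.080 for Cct3 and -0.0095 to 0.37 for Bag3. The mean over probe sets gives no count over all probe sets. No paired analysis was possible because the groups share no sample number. Cryab was under the signal minimum and could not be tested.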
